A study of Mus musculus with 12 samples.

Results

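The genes described here were chosen by name from the 23339 genes of the count table. The rule held no measured value, but earlier results of these data were known. The choice covers 36 genes of the G1/S transition and of DNA replication. They comprise the 6 subunits of the replicative helicase (Mcm2 to Mcm7), 7 genes of helicase loading and activation, 8 of DNA synthesis at the fork, 3 of nucleotide supply, 5 of chromatin replication, 3 of repair and fork protection and 4 G1/S regulators. Mcm7 has a place of its own among them, because the gene carries the miR-106b microRNA cluster in an intron. RNA was sequenced from pancreatic islets, the hormone-secreting tissue of the organ, of C57BL/6 mice. There were 6 libraries from the knockout (KO), labelled miR-17-92/106 KO and named in the series title by the clusters miR-17-92 and miR-106b, and 6 from the matching control, labelled miR-17-92/106 Control. The labels give no age, no Cre driver and no allele, and do not say whether the libraries stem from separate mice. The p-values therefore measure the spread between these libraries, which may be technical.

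A cell that commits to division first loads the Mcm2 to Mcm7 hexamer onto replication origins with the help of Cdc6 and Cdt1. Cdc45 and the GINS proteins then turn the hexamer into an active helicase, and polymerases, the sliding clamp Pcna and its loader copy the opened strands. Most of these genes are transcribed under E2F control at the G1/S boundary, and adult mouse beta cells, the main islet cell type, rarely divide. The microRNAs of the miR-17-92 and miR-106b clusters are known as promoters of cell proliferation.

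The microRNAs named in the knockout fall into 4 seed families, shown here because the seed decides which messages a microRNA can pair with. Sequences are the mature strands of RefSeq (mouse build GRCm38.p6), written 5′ to 3′ with the seed, bases 2 to 8, in capitals. The first 3 come from the miR-106b cluster inside Mcm7 and the other 6 from the miR-17-92 cluster on chromosome 14.
miR-106b-5p: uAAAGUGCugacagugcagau
miR-93-5p: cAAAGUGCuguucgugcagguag
miR-25-3p: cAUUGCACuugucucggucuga
miR-17-5p: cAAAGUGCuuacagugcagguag
miR-20a-5p: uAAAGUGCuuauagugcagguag
miR-18a-5p: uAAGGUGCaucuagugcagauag
miR-19a-3p: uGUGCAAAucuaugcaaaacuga
miR-19b-3p: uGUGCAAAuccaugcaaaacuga
miR-92a-3p: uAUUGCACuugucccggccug
The seed AAAGUGC is shared by 4 of them, from both clusters: miR-106b-5p, miR-93-5p, miR-17-5p and miR-20a-5p. The seed AUUGCAC is shared across the clusters by miR-25-3p and miR-92a-3p, GUGCAAA is that of miR-19a-3p and miR-19b-3p, and AAGGUGC that of miR-18a-5p alone.

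In the GENCODE annotation of GRCm38, Mcm7 lies at chr5:138164583-138172422 on the minus strand, with 15 exons and 14 introns in its main transcript. Intron 13 holds Mir106b at chr5:138165737-138165818, Mir93 at chr5:138165523-138165610 and Mir25 at chr5:138165321-138165404, all on the strand of Mcm7. The bases of Mir93 and Mir25 are also exonic in another annotated Mcm7 transcript. The counts were made on mm9, a different build, so these positions describe the locus and not the counted intervals. All 9 precursor genes were listed with 0 counts in all 12 libraries, control included, so the deletion could not be checked on them. Mir17hg, the host transcript of miR-17-92, had 17 counts in KO and 11 in control libraries, which left it below the expression filter.

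Replication genes were a very small part of the islet RNA. Library totals ran from 2642420 to 5099566 counts, and 48.6% to 64.0% of them fell on Ins1 and Ins2, the insulin genes that mark beta cells. The 36 replication genes together held 4551 counts, 0.0102% of all counts. Levels are given as CPM, read counts brought to a common library size, with sizes scaled by TMM, a method that equalizes the bulk of genes between libraries. A single read was worth 0.205 to 0.423 CPM, and a count of 0 allowed a level of up to 0.615 to 1.27 CPM, depending on the library. Only 12 of the 36 genes passed the expression filter (minimum count 10, minimum total 15): Mcm2, Mcm6, Mcm7, Pcna, Prim1, Rfc3, Fen1, Lig1, Rrm1, Dnmt1, Slbp and Tipin. These 12 held 72.7% of the reads of the group, with 179 to 556 reads each, against a median of 603.5 reads for a tested gene of the table. The other 24 had 4 to 115 reads each over all 12 libraries, and 12 of them had 0 reads in at least 1 library.

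**Figure D1:**
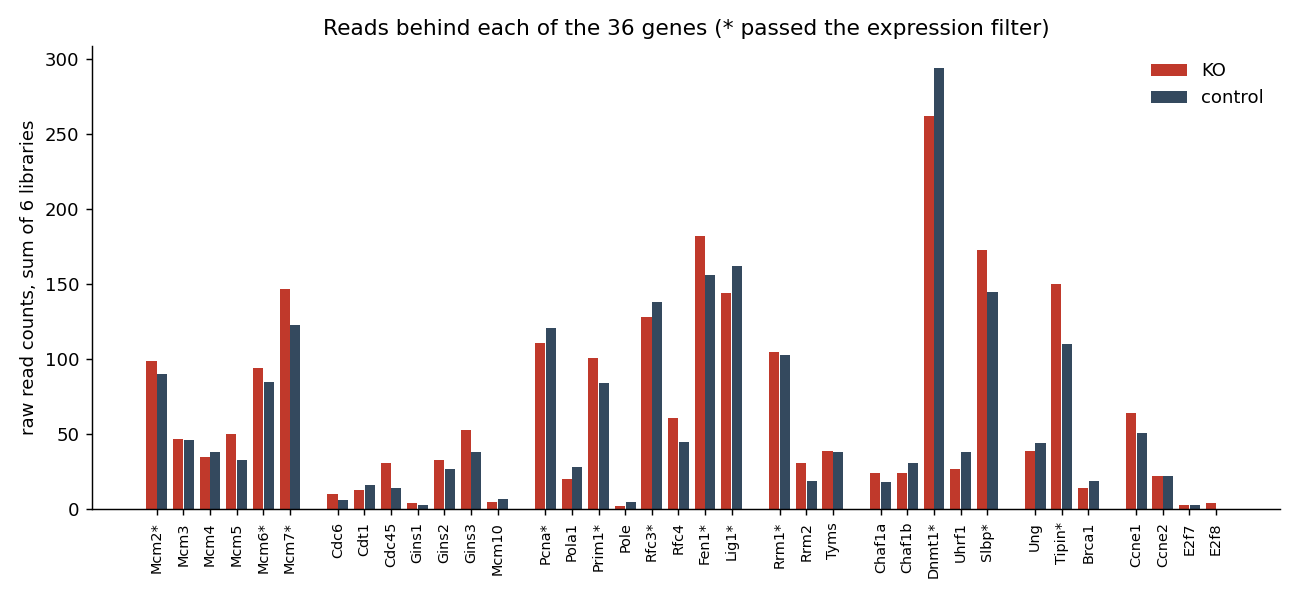
Raw read counts behind each of the 36 genes, summed over the 6 KO libraries (red) and the 6 control libraries (dark blue), with genes set in blocks by role and an asterisk on the 12 that passed the expression filter. Dnmt1 stands highest with 262 and 294 reads, and Pole, Gins1, E2f7 and E2f8 have under 10 reads in all.

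Levels of different genes can be compared per length of their exons, as reads per kilobase of exon scaled to library size like CPM (RPKM; exon lengths from GENCODE on GRCm38). By that measure the 36 genes ran from 0.0118 (Pole, the catalytic subunit of the leading-strand polymerase) to 3.21 (Tipin), and 10 of them reached 1. Of the 12 tested genes, 10 lay below the median of 3.01 RPKM over the tested genes of the table. The 2 above it were Tipin and Fen1, at 3.21 and 3.04. The 6 helicase subunits work in equal numbers in 1 complex. Over all 12 libraries they were at 1.39 (Mcm7), 0.850 (Mcm6), 0.594 (Mcm2), 0.559 (Mcm3), 0.461 (Mcm5) and 0.450 (Mcm4) RPKM. The order put the microRNA host first, with 2 limits. Lengths join the exons of all annotated transcripts, from 3.59 kb for Mcm4 to 6.96 kb for Mcm2. Mcm7 shares 12.6% of its exon bases with other genes, and Mcm2 to Mcm6 share 0%.

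No replication gene passed the test between KO and control islets. With edgeR's quasi-likelihood test and Benjamini-Hochberg adjustment over all 9664 genes tested, 0 of the 12 genes had an adjusted p under 0.05, against 12 genes called in the whole table, or 0.124% of those tested (0.0724% higher and 0.0517% lower in KO). At an unadjusted p under 0.05 the same test gave 1 of the 12, Tipin, beside 764 genes or 7.91% of the table. DESeq2, which tested 30 of the 36 genes, also called 0 of them, beside 27 called among all 12761 genes it tested. By DESeq2 0 of the genes had an unadjusted p under 0.05, a count without background, as the share of all genes is not given here. In the authors' deposited table, made with DESeq2, 0 of the 36 genes had an unadjusted p under 0.05, beside 4.72% of all genes with a p. The log2 fold changes (KO over control) lay between -0.16 and 0.47, with 8 above and 4 below 0, and adjusted p-values between 0.614 and 0.987. Their median was 0.15, against 0.00 over all genes tested, of which 50.7% were above 0. A fit with no expression filter took in all 36 genes and called 0 of them, beside 22 called among all 16245 genes. It put 22 of the 36 above 0. Their median was 0.09, against -0.0038 over all 16245 genes of that fit. Its unadjusted p was under 0.05 for 2, Tipin and E2f8, the latter on 4 reads in all. The shares of all genes above 0 and under 0.05 in that fit are not given here, so these counts have no background. The KO and control ranges stood apart in 0 of the 12 tested genes, beside 0.579% of all genes tested. With a share that low, 0 of 12 is no result about these genes. They did not stand apart in the 24 untested genes either, for which no such share is given. Standard errors were 0.18 to 0.28 on the log2 scale. Of the unadjusted 95% intervals of the 12 genes, the lowest bound was a fold of 0.672 (Pcna) and the highest 1.89 (Tipin). Changes beyond these bounds lay outside all 12 intervals. Limits differed by gene, with intervals from 0.691 to 1.15 for Dnmt1 and from 0.909 to 1.51 for Slbp. Changes within the interval of a gene are not excluded for it. The smallest change that the adjusted test could detect was not computed.

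**Figure D2:**
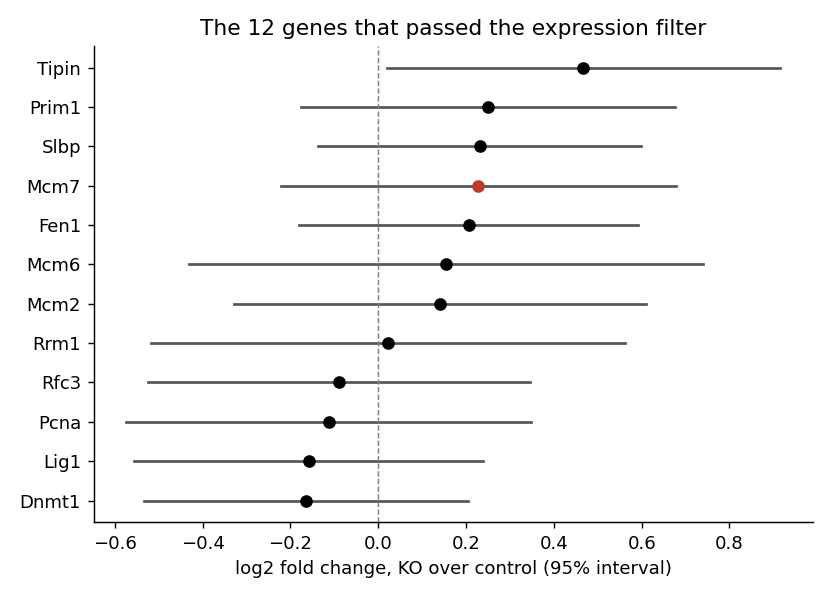
Log2 fold change, KO over control, of the 12 replication genes that passed the expression filter, with 95% intervals from edgeR's quasi-likelihood fit (6 libraries per group) and Mcm7 in red. The intervals of 11 genes include 0, and that of Tipin runs from 0.02 to 0.91 before any adjustment for the number of genes.

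Mcm7 was read in every library. It lay between 6.06 and 7.17 CPM in the KO libraries, with a median of 6.45, and between 3.23 and 8.13 CPM in the controls, with a median of 6.65. The KO range thus sat inside the control range, in which replicates 2 and 4 were low, at 3.23 and 3.36 CPM, and the other controls were at 6.62 or above. The means were 6.51 ± 0.37 CPM in KO and 5.80 ± 2.02 CPM in control (SD, n = 6 each), and the KO median was below the control median although the KO mean was above the control mean. By edgeR's quasi-likelihood test the log2 fold change was 0.23 ± 0.22 (SE) with an adjusted p of 0.873 and a 95% interval of -0.22 to 0.68, which is a fold of 0.858 to 1.6. The titles begin with a number of unstated meaning, at most 706 in all KO libraries and in 1 control, replicate 1. With a term that splits the libraries there, the log2 fold change was -0.04 ± 0.44 (adjusted p = 0.999), an estimate that rests on that 1 control library.

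The SD of Mcm7 was smaller in KO than in control, a difference that was not tested. Against the Poisson variance of its reads, which takes them as independent molecules, the variance over the KO libraries was 0.0946 times and that over the control libraries 2.96 times as large. Over both groups of the 12 tested genes this ratio ran from 0.0946 to 4.12 with a median of 1.17, and 11 of the 24 values were at or below 1, 13 above 1 and 4 of these above 2. The exons of Mcm7 overlap exons of Ap4m1 by 321 bases and of Cops6 by 64 bases on the opposite strand, out of 4426 annotated exon bases. No source used here says whether reads were counted by strand, and reads in those stretches cannot be told apart.

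Mcm2 and Mcm6, the other tested subunits, had small values in the same direction. Mcm2 ran from 2.55 to 5.74 CPM in KO (median 4.58) and from 3.34 to 5.60 CPM in control (median 3.66). Mcm6 ran from 1.69 to 7.29 CPM in KO (median 4.24) and from 1.89 to 4.95 CPM in control (median 4.21). For both genes the ranges overlapped across most of their length. Their log2 fold changes were 0.14 ± 0.23 (adjusted p = 0.937) and 0.15 ± 0.28 (adjusted p = 0.949, edgeR quasi-likelihood test for both). That of Mcm2 was 0.05 without KO replicate 1 and 0.29 without control replicate 2. That of Mcm6 changed sign, to -0.02 and -0.01, when KO replicate 6 or control replicate 4 was left out.

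Mcm3, Mcm4 and Mcm5 were below the filter and are given by their reads. Mcm3 had 47 reads in KO and 46 in control libraries and ran from 1.06 to 2.87 CPM in KO (median 2.19) and from 1.13 to 3.90 in control (median 1.70). Mcm4 had 35 and 38 reads and ran from 0.615 to 2.55 CPM in KO (median 1.36) and from 1.05 to 2.6 in control (median 1.5). Both genes overlapped widely between the groups. Mcm5 had 50 reads in KO and 33 in control libraries, and ran from 1.64 to 2.55 CPM in KO (median 2.41) and from 0.743 to 2.35 in control (median 1.30). All 6 KO libraries were above the control mean for Mcm5, but control replicate 6, at 2.35 CPM, lay within the KO range. Its ratio of reads, scaled for library size, was 1.52, with an interval from counting error alone of 0.959 to 2.43 that includes 1, and in a fit with no expression filter its log2 fold change was 0.61 ± 0.38 (adjusted p = 0.708, edgeR quasi-likelihood test).

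**Figure D3:**
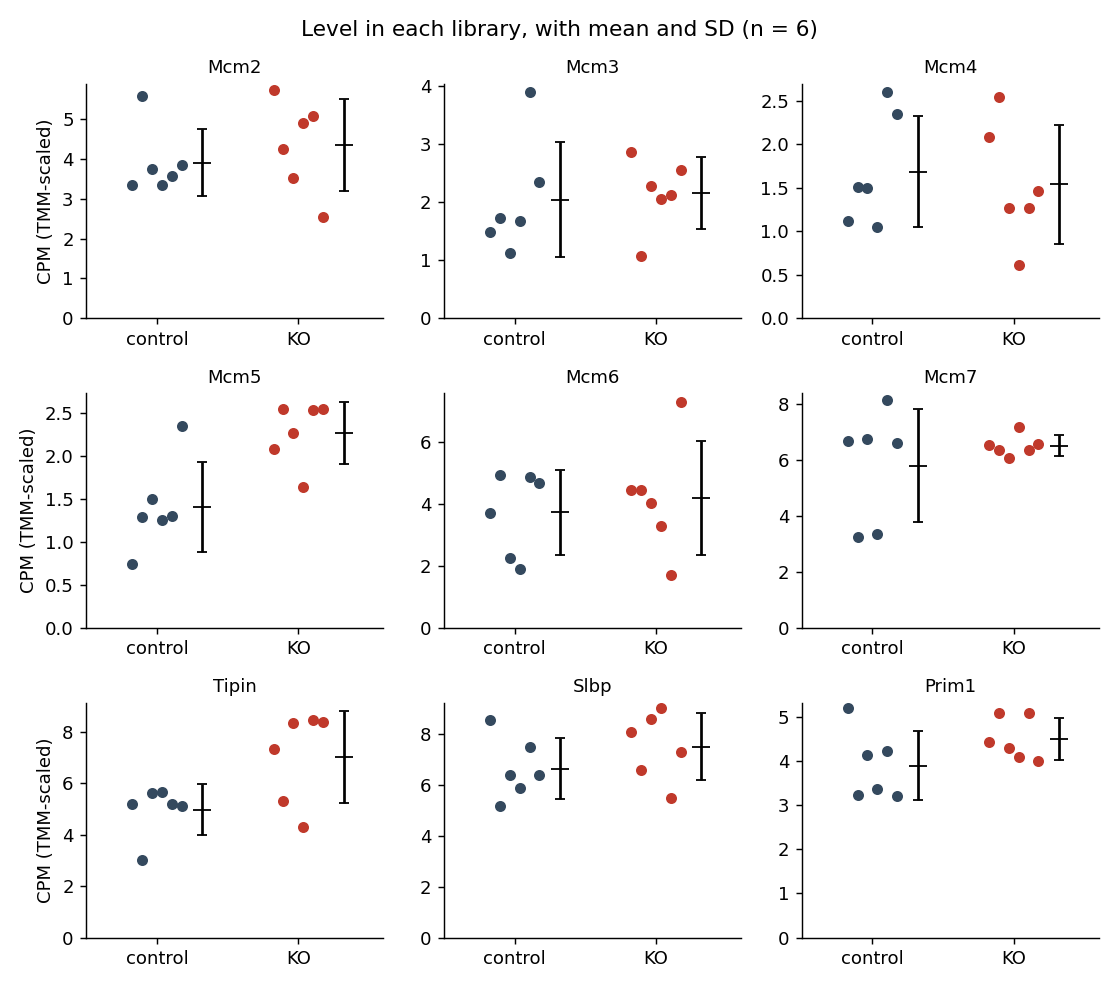
CPM in each library (points) of the 6 helicase subunits and of the 3 tested genes with the smallest unadjusted p, Tipin, Slbp and Prim1, in control (dark blue) and KO (red), with mean ± SD (n = 6 each) beside the points and axes that start at 0. KO libraries of Mcm7 lie between 6.06 and 7.17 CPM, inside the control range of 3.23 to 8.13 CPM, and the groups overlap in all 9 genes.

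Setting Mcm7 against its partners within each library removes the scaling between libraries. Of the reads on Mcm2 to Mcm7, the share on Mcm7 was 27.5% to 36.5% in the KO libraries and 17.6% to 40.0% in the controls. The control range enclosed the KO range, and its lowest value was replicate 2, in which 15 of 85 reads were on Mcm7 (exact 95% interval 10.2% to 27.4%, counting error only). The mean share was 31.2% ± 3.30 in KO and 31.1% ± 8.38 in control (SD, n = 6 each). The log2 ratio of Mcm7 to the summed partners, with 0.5 added to each count, differed by 0.04 between KO and control (two-sided exact permutation p = 0.896, smallest possible p = 0.00216), with an interval of -0.495 to 0.635 from inverting that test. A difference of Mcm7 from its partners beyond those limits lay outside the interval, and differences within them are not excluded. The smallest difference that the permutation test could detect was not computed. Without control replicate 2 the difference was -0.16 (exact permutation p = 0.372), and the sign also turned without KO replicate 4 (-0.03) and without control replicate 4 (-0.01).

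Each partner was also set against Mcm7 on its own, in 5 comparisons. The log2 ratio of Mcm7 to Mcm5 was lower in KO by the largest amount, with a difference of -0.44 (exact permutation p = 0.193, adjusted p = 0.747). That of Mcm7 to Mcm4 was higher, with a difference of 0.41 (exact permutation p = 0.299, adjusted p = 0.747). The ratios to Mcm2, Mcm3 and Mcm6 differed by 0.12, 0.13 and 0.11, and the 5 exact permutation p-values, adjusted over these comparisons, were 0.747 to 0.775. As a description over the 12 libraries, which share their depth and scaling, Mcm7 and its partners had Pearson r from -0.171 (Mcm2) to 0.307 (Mcm3) on log2 CPM. The genes of closest profile to Mcm7 among the 9663 other tested genes were Akap7, an anchoring protein of protein kinase A, at r = 0.904, Met, the hepatocyte growth factor receptor, at 0.873, and Atp6v0a1, a subunit of the vacuolar proton pump, at 0.839. These are the 3 highest of 9663 values over 12 libraries, with 15 to 35 reads of Mcm7 in each. The partners had 2 to 26 reads per library, and neither the high nor the low values of r were tested.

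**Figure D4:**
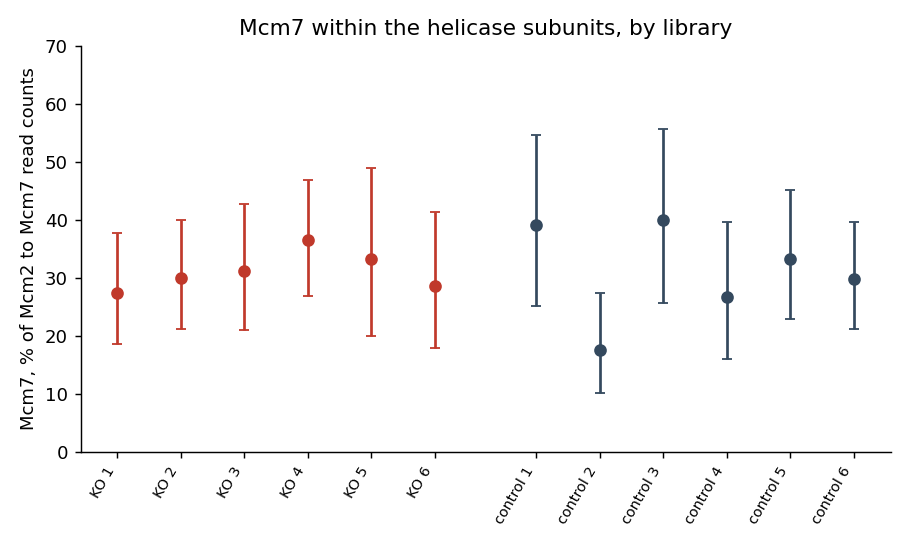
Share of the reads on Mcm2 to Mcm7 that fell on Mcm7, in percent, for each of the 6 KO (red) and 6 control (dark blue) libraries, with exact 95% binomial intervals that cover counting error only. KO libraries lie between 27.5% and 36.5%, and control replicate 2 is lowest at 17.6%.

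None of the 3 tested genes around Mcm7 passed the test. Cops6, a subunit of the COP9 signalosome whose 3′ end overlaps that of Mcm7, had 41.9 ± 2.81 CPM in the KO and 40.0 ± 3.63 CPM in the control libraries, and its log2 fold change was 0.06 ± 0.08 (SE) with an adjusted p of 0.921 (edgeR quasi-likelihood test). Taf6, a subunit of the general transcription factor TFIID, stood at -0.11 ± 0.11 on the same scale (adjusted p = 0.900). Cnpy4, a regulator of Toll-like receptor trafficking, ran from 4.55 to 9.92 CPM in KO (median 8.22) and from 4.09 to 6.32 CPM in control (median 5.25). Its log2 fold change of 0.58 ± 0.21 had an unadjusted p of 0.00957 and an adjusted p of 0.420 by the same edgeR test, and the ranges overlapped. Ap4m1, an adaptor subunit whose start overlaps that of Mcm7 on the other strand, was below the filter, with 49 reads in KO and 72 in control libraries.

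None of the 7 genes of helicase loading and activation passed the expression filter. Cdc6 and Cdt1, which load the hexamer, had 10 and 13 reads in the KO and 6 and 16 in the control libraries. Of the GINS subunits, Gins1 had 4 and 3 reads, Gins2 33 and 27 and Gins3 53 and 38 in KO and control. Mcm10, which acts at helicase activation, had 5 and 7 reads. Counts this low do not separate the groups. Cdc45, the helicase cofactor, had 31 reads in KO and 14 in control libraries, and ran from 0.365 to 2.34 CPM in KO (median 1.27) and from 0 to 1.51 CPM in control (median 0.423). The ratio of its reads, scaled for library size, was 2.22, with an interval from counting error alone of 1.15 to 4.51, and the ranges overlapped. In the fit without a filter the log2 fold change of Cdc45 was 1.08 ± 0.56 (adjusted p = 0.658, edgeR quasi-likelihood test). Of the annotated exon bases of Gins2, 67.3% are shared with Gse1 on the opposite strand, so its reads are uncertain.

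Of the 8 genes of DNA synthesis at the fork, 5 were tested and 0 passed, with 2 log2 fold changes above and 3 below 0. Prim1, the catalytic primase subunit that lays down the RNA primer, ran from 4.01 to 5.1 CPM in KO (median 4.37) and from 3.20 to 5.20 CPM in control (median 3.74). All 6 KO libraries were above the control mean, and the KO range lay within the control range. Its log2 fold change was 0.25 ± 0.21 (unadjusted p = 0.237, adjusted p = 0.828, edgeR quasi-likelihood test), and it was -0.21 with the title number term. Fen1, the flap endonuclease that trims Okazaki fragments, ran from 5.50 to 11.1 CPM in KO (median 7.22) and from 5.38 to 8.11 CPM in control (median 7.02), and its log2 fold change was 0.21 ± 0.19 with an adjusted p of 0.858. It was 0.08 without KO replicate 3, 0.14 without KO replicate 4 and 0.13 without control replicate 2. The groups overlapped over nearly the whole control range of Fen1. Fen1 shares 5.37% of its annotated exon bases with Tmem258 on the opposite strand.

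Pcna, the sliding clamp, had a log2 fold change of -0.11 ± 0.22, Rfc3, a subunit of the clamp loader, -0.09 ± 0.21, and Lig1, the ligase that joins Okazaki fragments, -0.16 ± 0.19, with adjusted p-values of 0.913 to 0.961 in the same edgeR test. Named processed copies, Pcna-ps1 and Pcna-ps2, make the reads of Pcna uncertain. The sign of Pcna turned to 0.05 without control replicate 6, and that of Rfc3 to 0.02 without KO replicate 4. The genes of this group below the filter were Rfc4, a second loader subunit, with 61 reads in KO and 45 in control libraries, Pola1, the catalytic subunit of polymerase alpha, with 20 and 28, and Pole with 2 and 5. Rfc4 shares 12.7% of its annotated exon bases with Eif4a2 on the opposite strand.

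In nucleotide supply, Rrm1, the large subunit of ribonucleotide reductase, was the tested gene. Its level was 4.51 ± 1.19 CPM in the KO and 4.50 ± 2.10 CPM in the control libraries (SD, n = 6 each), and the log2 fold change was 0.02 ± 0.26 with an adjusted p of 0.987 (edgeR quasi-likelihood test). Rrm2, the small subunit that is made in S phase, had 31 reads in KO and 19 in control libraries, and 2 of the 12 libraries held none. Tyms, thymidylate synthase, had 39 and 38 reads, which a named copy, Tyms-ps, makes uncertain.

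Chromatin replication held the most abundant gene by reads. Dnmt1, the maintenance DNA methyltransferase, had 11.7 ± 2.81 CPM in the KO and 13.1 ± 3.95 CPM in the control libraries, and its log2 fold change was -0.16 ± 0.18 with an adjusted p of 0.900 (edgeR quasi-likelihood test). It was -0.06 without control replicate 1, -0.05 without control replicate 6 and -0.27 without KO replicate 6. With the title number term it was -0.70 ± 0.31 (adjusted p = 0.871). Slbp, which binds the stem-loop of histone messages, ran from 5.50 to 9.02 CPM in KO (median 7.69) and from 5.17 to 8.54 CPM in control (median 6.39). The ranges of Slbp nearly coincided, with the KO libraries slightly higher. Its log2 fold change was 0.23 ± 0.18 (unadjusted p = 0.208, adjusted p = 0.805), and -0.16 with the title number term. Uhrf1, which brings Dnmt1 to newly copied DNA, had 27 reads in KO and 38 in control libraries, and the histone chaperone subunits Chaf1a and Chaf1b had 24 and 18 and 24 and 31. Chaf1a shares 52.5% of its annotated exon bases with Ubxn6 on the opposite strand.

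Tipin, which with Timeless protects stalled forks, had the smallest p of the 12 genes past the expression filter and was the highest of the 36 per exon length. It ran from 4.30 to 8.46 CPM in KO, with a median of 7.82, and from 3.02 to 5.67 CPM in control, with a median of 5.20. Of the KO libraries, replicates 1, 3, 5 and 6 lay above every control, at 7.31 to 8.46 CPM, and replicates 2 and 4 lay within the control range. Its mean was 7.02 ± 1.79 CPM in KO and 4.97 ± 0.987 CPM in control (SD, n = 6 each), and 5 of 6 KO libraries were above the control mean. The log2 fold change was 0.47 ± 0.22 (unadjusted p = 0.0415, adjusted p = 0.614, edgeR quasi-likelihood test), with a 95% interval of 0.02 to 0.91, and it did not pass. In the authors' deposited table its log2 fold change was 0.48 with an unadjusted p of 0.055. Control replicate 2 was the lowest library, and without it the log2 fold change was 0.34 (adjusted p = 0.787). Its partner Timeless was below the filter, with 33 reads in KO and 47 in control libraries. The other 2 genes of this role were Ung, the uracil-DNA glycosylase, with 39 reads in KO and 44 in control, and Brca1, of homologous recombination, with 14 and 19.

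All 4 G1/S regulators were below the filter. Ccne1, a cyclin E gene that drives entry into S phase with Cdk2, ran from 1.82 to 3.69 CPM in KO (median 2.62) and from 0.646 to 3.38 CPM in control (median 2.75), on 64 and 51 reads. Ccne2, the other cyclin E gene, had 22 reads in each group and shares 17.4% of its annotated exon bases with Ints8 on the opposite strand. The ranges of both cyclins overlapped. E2f7 and E2f8, the atypical E2F repressors of S phase genes, were near the limit of detection. E2f7 had 3 reads in each group. E2f8 had 4 reads in the KO group and 0 in the control group, where a count of 0 allows up to 3, and 9 of the 12 libraries held none.

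Matches to the most shared seed were held by a similar part of these genes as of all genes. A match of 7 letters to the AAAGUGC seed (to bases 2 to 8, or to bases 2 to 7 followed by A) stood in the longest annotated 3′ UTR of 7 of the 36 genes, or 19.4%, beside 18.7% of all 20921 genes with a UTR. The 7 were Mcm3, Mcm7, Gins2, Rrm2, Chaf1a, Tipin and Ccne2. For the other seeds the counts were 3 genes (8.33%, against 12.7% of all) for miR-25 and miR-92a, 2 (5.56%, against 12.6%) for miR-18a and 6 (16.7%, against 16.9%) for miR-19. At least 1 of the 4 matches was held by 36.1% of the 36 genes and 41.3% of all, with median UTR lengths of 792 and 967 bases. The matches of the tested genes are shown with their flanks, from GRCm38 and in the orientation of the message, with the match in capitals. The first 2 are matches to AAAGUGC and that of Rrm1 is to GUGCAAA.
Mcm7: tctcccatgctGCACTTTtttat
Tipin: ttgctacagagtCACTTTAatgt
Rrm1: ataatgcagtaTTTGCACttgta
Mcm7, host to 2 microRNAs with the AAAGUGC seed, thus carries a match to that seed in its own 3′ UTR, which is 136 bases long. A match is a run of letters and not a measured site, and the 2 tested genes with it, Mcm7 and Tipin, did not pass the test.

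Promoter letters were not used to choose the genes. Most genes of this kind are under E2F control, so the share with E2F letters is not independent of the choice. RefSeq promoter windows of 300 bases around the transcription start (GRCm38.p6) were at hand for 30 of the 36 genes. The letters of an E2F element, TTT followed by GGCG or CCCG and then C or G on either strand, occurred in 13 of the 30 (43.3%), beside 3.79% of 27025 genes. CCAAT, the letters bound by NF-Y, occurred on either strand in 21 of the 30, beside 41.1% of genes. Mcm7 has 2 annotated promoter windows. The one at chr5:138171834-138172133 on the minus strand is shown because it held both, with the matches in capitals in the direction of transcription. The other, at chr5:138171217-138171516, held 1 CCAAT match and 0 matches to the E2F letters.
Mcm7 promoter: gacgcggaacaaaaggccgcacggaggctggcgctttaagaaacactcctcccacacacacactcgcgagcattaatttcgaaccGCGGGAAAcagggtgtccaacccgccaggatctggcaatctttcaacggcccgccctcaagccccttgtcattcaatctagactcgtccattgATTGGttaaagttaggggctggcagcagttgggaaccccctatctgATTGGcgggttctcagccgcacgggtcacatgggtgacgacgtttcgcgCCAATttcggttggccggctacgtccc
The match to the E2F letters begins at position -165 from the start and is read on the opposite strand, and the 3 CCAAT matches include 1 after the start. In the other tested genes, the E2F letters were in the windows of Mcm6, Rfc3, Lig1 and Dnmt1. Of these 5 tested genes with the letters, 2 had log2 fold changes above 0 and 3 below 0, and none passed the test.

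Of 49 further genes of the replication machinery, 31 were tested and 0 passed, with 20 log2 fold changes above and 11 below 0, a median of 0.09 and 3 unadjusted p-values under 0.05. The smallest p was that of Nasp, a histone chaperone, which ran from 13.8 to 15.9 CPM in KO (median 14.0) and from 6.75 to 13.0 CPM in control (median 10.5). Its ranges did not overlap, as in 0.579% of all genes tested, and its log2 fold change was 0.40 ± 0.14 (unadjusted p = 0.00900, adjusted p = 0.415, edgeR quasi-likelihood test). The others under 0.05 unadjusted were Rfc1, the large clamp loader subunit, at -0.33 ± 0.13 and Rpa1, of the single-strand binding protein, at 0.20 ± 0.09, with adjusted p-values of 0.501 and 0.620. Of 13 genes of mitosis, 3 were tested and 0 passed: the proliferation marker Mki67 at -0.22 ± 0.24 (adjusted p = 0.900), Cenpf, a kinetochore protein, at 0.00 ± 0.18 and Ube2c, of the anaphase-promoting pathway, at -0.06 ± 0.34.

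Summed over all 36 genes, the level ran from 96.5 to 118.5 CPM in KO (median 102.6) and from 87.0 to 111.8 CPM in control (median 97.1), with means of 105 ± 7.84 and 98.4 ± 11.3 CPM (SD, n = 6 each). The ranges overlapped. With CPM taken over the counts outside the insulin genes, the order of the means turned, with 249 ± 43.8 in KO and 253 ± 27.1 in control. The medians on that scale kept their order, at 265 in KO and 245 in control. KO replicate 5 was the lowest library on it, at 168. Summed mitotic genes came to 28.9 ± 3.06 CPM in the KO and 28.5 ± 3.67 CPM in the control libraries. In whole islets, fewer cells of a type and less RNA per cell cannot be told apart. Other cells were present in both groups. The 18 acinar genes took 1.23% to 12.6% of the counts in KO and 1.07% to 5.05% in control libraries. The share was highest in KO replicates 5 and 6 and control replicate 1. Tipin was at 8.46 and 8.39 CPM in those KO replicates and at 5.20 CPM in that control. In KO replicates 1 to 4, with shares of 1.23% to 2.15%, Tipin ran from 4.30 to 8.33 CPM. With the acinar share as a covariate the log2 fold change of Tipin was 0.41 ± 0.22 (adjusted p = 0.693, edgeR). Without KO replicates 5 and 6 and control replicate 1 it was 0.35 ± 0.25 (adjusted p = 0.783, edgeR). The 15 leukocyte genes summed to 336.5 CPM in KO replicate 6 and to 96.4 to 120.3 CPM in the other 11. That library had the highest replication sum by CPM, at 118.5. Over the counts outside the insulin genes it was at 233, and control replicate 6 was highest at 298. Endothelial genes (7) summed to 151 ± 11.7 CPM in KO and 170 ± 5.67 CPM in control, and ductal genes (6) to 98.0 ± 8.84 and 92.2 ± 6.34 CPM. The part of these cells in the replication counts was not tested.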

How the data were processed

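RNA of islets from 6 KO and 6 control libraries was analysed from 1 deposited table of 23366 rows. Its columns are whole-number read counts for each gene, per the file headers, with the authors' DESeq2 log2 fold change and p-value, which were deposited by the authors and are only set beside the results here. The submitters' processing notes list TopHat2, HTSeq, DESeq2 1.4.5 and mm9 but not what each was used for. Annotation and strand setting are not given in the sources used here. The 12 normalized columns were not used. Excluded were 27 rows (0.0447% of the counts) whose symbol a spreadsheet had made a date.

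The main test was edgeR 4.0.16 (R 4.3.3) with quasi-likelihood, TMM factors, minimum count 10 and minimum total 15, Benjamini-Hochberg adjustment over all tested genes and a threshold of 0.05. The SE is the log2 fold change over the root of the F statistic. Profile likeness is Pearson r on log2 CPM (prior count 2). The Mcm7 ratio was tested by exact permutation of libraries. Alternatives were DESeq2 1.42.0, other scalings, filters and covariates, a replicate block and each library left out in turn. Intervals on reads cover counting error alone: reads are not independent molecules. Counts of all 66 pairs of libraries differed beyond sampling noise, with a chi-square per gene of at least 2.04, and none was treated as a copy.

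The genes and lists were chosen with earlier results of these data known. Values by library are given for Mcm2 to Mcm7, genes past the threshold, the 3 smallest unadjusted p-values, and the tested gene highest per length. Of the other replication genes the one with the smallest p is named, with Rfc1 and Rpa1 added after their values were seen, as were Cdc45, Mcm5 without a filter, Fen1, Ccne1 and Timeless. The flanking genes of Mcm7 and the 3 genes of closest profile follow the same rule. Sequences and annotation came from RefSeq and GENCODE on GRCm38. Figures were drawn with matplotlib 3.10.9.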

Additional observations from a re-analysis of the deposited data

Results flagged for a closer look

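In 4 of 28 groups of 6 libraries checked, a single library lay far from the other 5 by Dixon's gap ratio, where chance flags about 1 in 20 groups. Mcm2 was at 5.60 CPM in control replicate 2, with the other controls at 3.34 to 3.84 CPM. Tipin was at 3.02 CPM in the same library, with the other controls at 5.12 to 5.67 CPM. Pcna was at 7.68 CPM in control replicate 6, against 4.2 to 5.38 CPM in the other controls. Rrm1 was at 2.12 CPM in KO replicate 5, the shallowest library, against 4.70 to 5.30 CPM in the other KO libraries.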

How the results depend on the processing

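Under all 24 alternatives, 0 of the 36 genes and 0 of the other replication genes passed, but not all of them were tested each time. All 36 were tested only with no filter on low counts. DESeq2 tested 30 of them, a minimum count of 20 left 7, and the other settings tested 12 to 15. The count of all genes called, 12, was 27 with DESeq2, 22 with no filter on low counts, 33 with the acinar covariate, 0 with the title number term, 30 without titles 701, 703 and 706, 26 at an adjusted p of 0.10, and 5 to 17 with 1 library left out (5 without KO replicate 1, 6 without KO replicate 4, 7 without control replicate 5). The title number term moved the median of the tested genes from 0.15 to -0.0033 and turned Mcm7 to -0.035, Pcna to 0.028, Prim1 to -0.21 and Slbp to -0.16, with adjusted p-values of 0.985 to 0.999. It also moved Dnmt1 from -0.16 to -0.70, Lig1 from -0.16 to -0.45, Rfc3 from -0.09 to -0.445, Rrm1 from 0.02 to 0.47 and Mcm2 from 0.14 to 0.39, with adjusted p-values of 0.871 to 0.968. A single control, replicate 1 (numbered 706), falls on the KO side of that term, and the cause was not tested. It had the highest acinar share of the controls, at 5.05%. Titles 701 and 703 are KO replicates 5 and 6. With 1 library left out, the median was 0.09 to 0.19, Mcm7 0.09 to 0.35, Tipin 0.34 to 0.59, the Mcm7 ratio -0.16 to 0.16 (-0.03 without KO replicate 4, -0.16 without control replicate 2 and -0.01 without control replicate 4), Mcm2 0.05 to 0.29, Fen1 0.08 to 0.27, Lig1 -0.28 to -0.07, Dnmt1 -0.27 to -0.05, Mcm6 -0.02 to 0.27, Pcna -0.24 to 0.048, Rfc3 -0.22 to 0.0195 and Rrm1 -0.089 to 0.21. Mcm6 was -0.01937 without KO replicate 6 and -0.01155 without control replicate 4, and Rrm1 was -0.010 with unscaled library totals. Rrm1 was also -0.01 and -0.02 without KO replicates 2 and 3, and -0.04, -0.089 and -0.08 without control replicates 1, 2 and 3. Same-numbered KO and control libraries did not deviate together (correlations -0.115 to 0.0516). Weak correlations cannot exclude a pairing with a small effect, and the labels do not state one. With the replicate block 14 genes were called, 0 of them replication genes. Mcm7 was then 0.27 (adjusted p = 0.878, edgeR) and the ratio stayed at 0.04 (exact sign-flip p = 0.844). Depth is 1 limit: 24 of the 36 genes fell below the expression filter.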
